A study of Homo sapiens with 18 samples.

Results

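ACP5 and 9 cathepsin genes, CTSA, CTSB, CTSC, CTSD, CTSH, CTSK, CTSL, CTSS and CTSZ, are described here across THP-1 cells in which Notch signalling was raised or blocked and IL-4 was given or not. THP-1, a human monocytic line grown from a leukaemia, becomes macrophage-like in the phorbol ester PMA. The 10 genes were named as a set and found by their symbols among 58051 genes listed in each file, and all 10 were among the 15037 genes with enough counts to be tested. They were chosen by name with results of these data known, and which measured values guided the choice is not recorded, so counts of them are given as description. RNA was sequenced in 18 libraries, with 3 libraries in each of 6 groups numbered by experiment 1, 2 or 3. Each library held between 12410668 and 15099788 counts on genes.

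The cells carried an MSCV retroviral vector that also encodes GFP and were sorted for GFP. NIC1 cells expressed a MYC-tagged NIC1, the active intracellular part of the NOTCH1 receptor, with IL-4 in 1 group and without it in the other. DNMAML cells expressed a dominant-negative mastermind-like protein, which blocks transcription by the Notch complex, again with and without IL-4. IRES cells carried the vector without either protein, with and without IL-4, and served as control. All 6 groups were held in PMA at 5 ng/ml for 48 h, and the IL-4 groups then had IL-4 at 20 ng/ml for 3 h. The labels do not say whether the 3 experiments were separate transductions, so the p-values cover only library-to-library spread, part or all of which may be technical.

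Cathepsins are proteases that are made as inactive precursors, sorted to the lysosome and activated there by cleavage at acid pH. In macrophages they break down engulfed protein and matrix and prepare peptides for antigen presentation. ACP5 encodes tartrate-resistant acid phosphatase, which together with cathepsin K marks osteoclasts, the bone-resorbing relatives of macrophages. Many lysosomal genes carry an E-box that is bound by TFEB and related MiT/TFE factors. Notch acts on promoters through RBPJ, and IL-4 acts through STAT6.

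RefSeq promoter windows of build GRCh38.p14 were held for 7 of the 10 genes, ACP5, CTSA, CTSC, CTSD, CTSH, CTSL and CTSZ. The 250 bases before a start site were searched on both strands for CACGTG (the E-box of lysosomal genes), TCATGTG (a site of MITF), GTGGGAA (the RBPJ site) and the STAT6 site (TTC, any 4 bases, GAA). ACP5 and CTSC are printed because their levels differed most between constructs and with IL-4, and CTSA and CTSD because the E-box matches lie there. Capitals mark motif matches, a minus-strand match of TCATGTG reads CACATGA, and no 2 of the matches overlap.
ACP5 (chr19:11577646-11577895, minus strand): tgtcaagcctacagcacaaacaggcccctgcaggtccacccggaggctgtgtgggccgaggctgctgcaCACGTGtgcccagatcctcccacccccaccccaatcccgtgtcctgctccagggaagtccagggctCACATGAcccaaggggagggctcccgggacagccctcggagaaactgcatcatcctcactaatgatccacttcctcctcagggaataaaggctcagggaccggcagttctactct
CTSC (chr11:88337737-88337986, minus strand): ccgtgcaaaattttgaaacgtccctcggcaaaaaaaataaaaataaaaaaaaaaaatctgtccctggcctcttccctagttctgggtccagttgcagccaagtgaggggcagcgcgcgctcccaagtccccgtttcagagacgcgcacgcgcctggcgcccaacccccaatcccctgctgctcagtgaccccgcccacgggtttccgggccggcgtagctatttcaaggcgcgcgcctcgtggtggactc
CTSA (chr20:45891085-45891334, plus strand): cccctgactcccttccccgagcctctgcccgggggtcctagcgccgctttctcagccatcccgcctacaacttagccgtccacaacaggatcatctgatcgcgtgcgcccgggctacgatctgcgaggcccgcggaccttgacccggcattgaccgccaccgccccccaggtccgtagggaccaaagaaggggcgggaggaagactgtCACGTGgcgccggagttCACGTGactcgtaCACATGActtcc
CTSD (chr11:1763928-1764177, minus strand): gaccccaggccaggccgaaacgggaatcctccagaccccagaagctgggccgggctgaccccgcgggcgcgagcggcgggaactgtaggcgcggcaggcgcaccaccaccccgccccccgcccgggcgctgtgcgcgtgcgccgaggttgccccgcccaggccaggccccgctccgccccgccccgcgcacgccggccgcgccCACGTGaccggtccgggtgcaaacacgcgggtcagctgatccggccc
The fourth of 4 ACP5 windows held CACGTG starting at base -181 and CACATGA at base -115 from its start site. CTSA held CACGTG at bases -42 and -25 and CACATGA at base -12, and CTSD held CACGTG at base -47. None of the 4 motifs was found in the windows of CTSC, CTSH, CTSL and CTSZ, nor in the other windows of ACP5. Among 35116 promoter windows of the same length, 6.34% held CACGTG, 2.52% TCATGTG, 5.43% GTGGGAA and 5.38% the STAT6 site, so each of these matches describes a sequence that many promoters share.

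All 10 genes were expressed in every library. Levels are given in CPM, counts on genes scaled to a common library total after TMM, a factor per library that evens out the bulk of genes. Per kilobase of the longest principal transcript in GENCODE 29, and averaged over 18 libraries, CTSZ was highest at 173 CPM per kb and CTSC followed at 168 CPM per kb. CTSD had 97.9 and CTSB 94.0 CPM per kb, and then came CTSS at 57.4 and CTSA at 48.3 CPM per kb. The low end was ACP5 at 29.9, CTSH at 22.8, CTSL at 15.9 and CTSK at 6.23 CPM per kb. Of the CTSD transcript, 61.4% lay in same-strand exons of the read-through gene AC068580.4, and of the CTSA transcript 32.2% lay in opposite-strand exons of NEURL2, AL008726.1 and PLTP. Whether reads in such shared bases were dropped or used is not given in the sources used here, so the levels of CTSD and CTSA are uncertain.

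**Figure D1:**
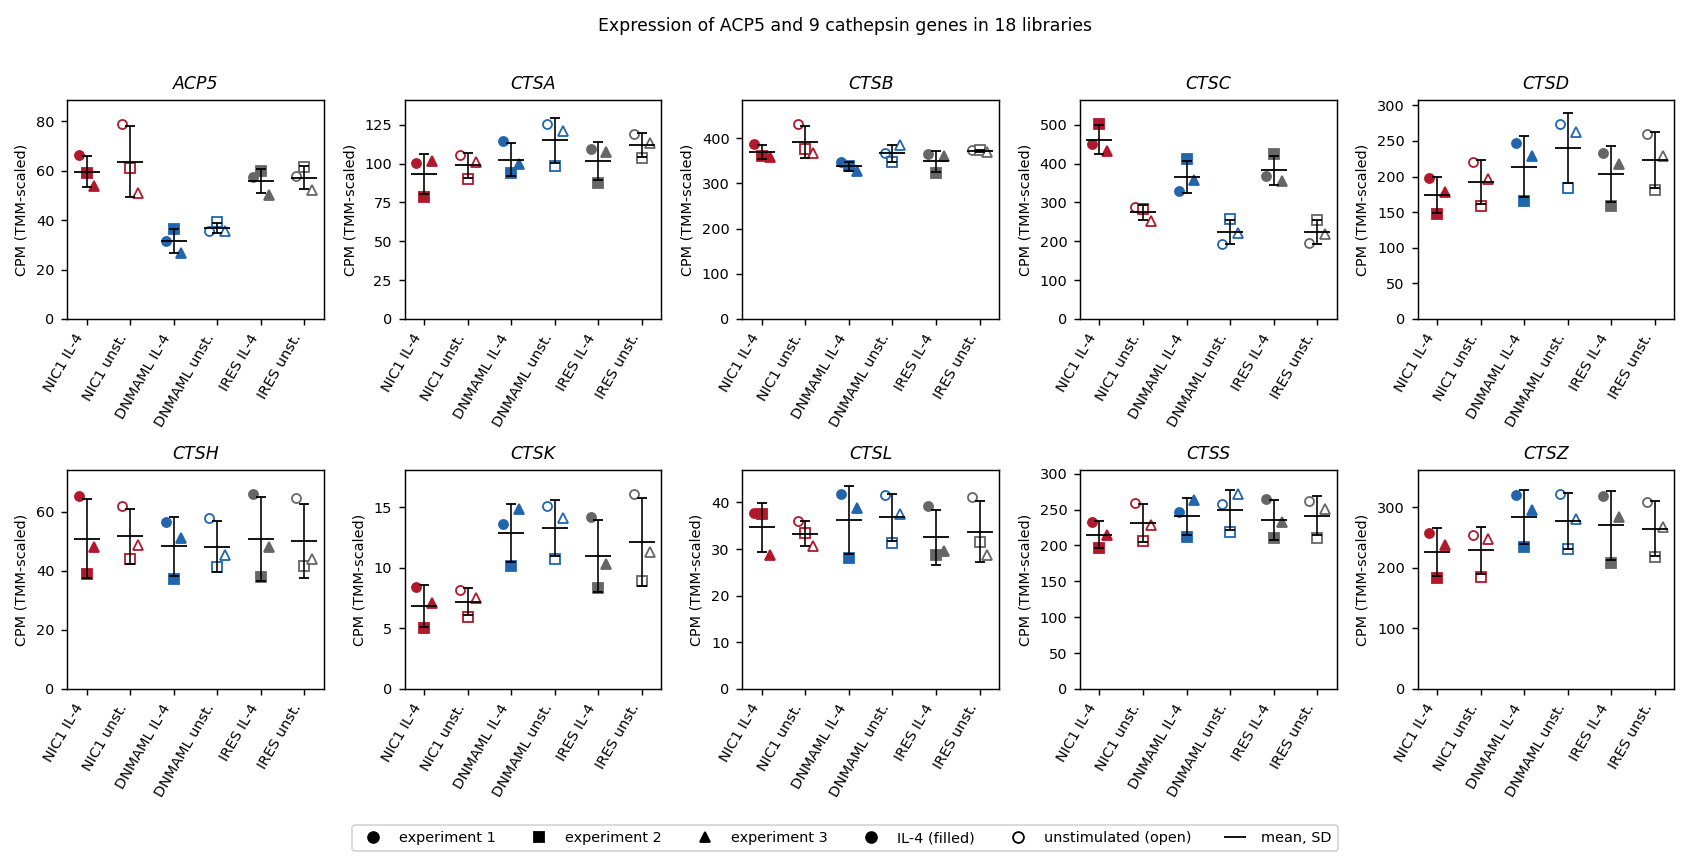
CPM of each gene (vertical axis, TMM-scaled, from 0) in the 3 libraries of each construct with IL-4 (filled symbols) and unstimulated (open symbols). Symbol shape gives the experiment number, the bar the group mean and the whiskers the SD (n = 3). CTSC stands higher with IL-4 in every construct, ACP5 is lowest in DNMAML cells, and CTSK is lowest in NIC1 cells.

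Construct, IL-4 and experiment number took very different shares of the variation of each gene. For ACP5, construct accounted for 83% of the sum of squares of log2 CPM over 18 libraries, IL-4 for 1.97% and experiment number for 8.06%. For CTSK, the shares were 65.5% for construct, 1.01% for IL-4 and 29.2% for experiment number. For CTSC, the order turned round, with 79.2% for IL-4 and 11.6% for construct. CTSH stood at the other extreme, with 91.2% for experiment number, and CTSZ, CTSD and CTSS also varied mainly between experiments at 71.3%, 68.3% and 67.8%. In these genes, experiment 2 had the lowest mean level of the 3 experiments. Differences between experiments of this size are why each comparison is given without the experiment number and with that number as a blocking term.

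**Figure D2:**
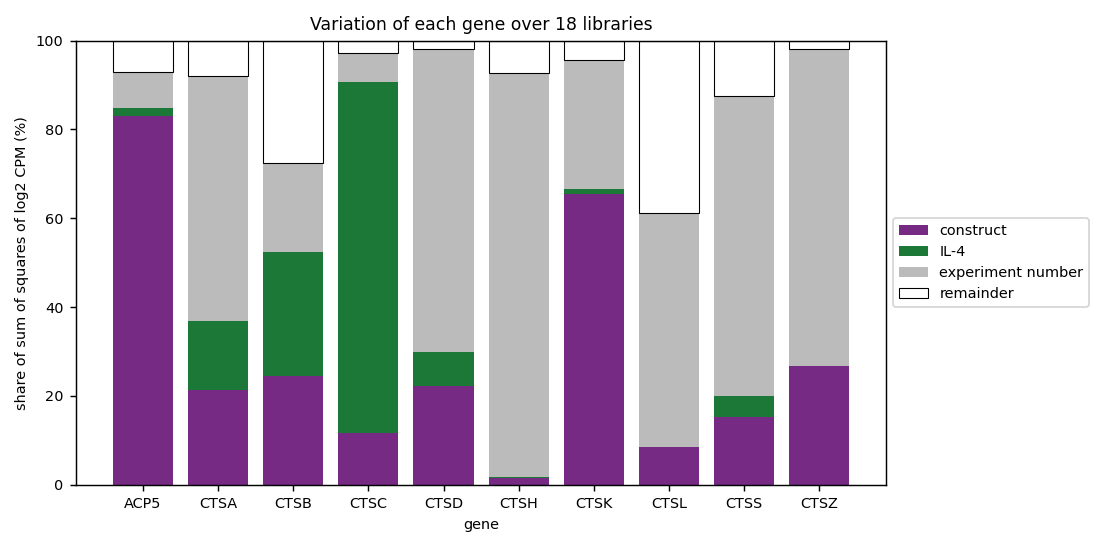
Share of the sum of squares of log2 CPM over 18 libraries (vertical axis, percent) that falls to construct, IL-4, experiment number and the remainder, by gene. Construct takes 83% in ACP5, IL-4 takes 79.2% in CTSC, and experiment number takes 91.2% in CTSH.

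The response to IL-4 was asked within each construct. CTSC (chr11:88293592-88337787, minus strand, GRCh38), which encodes dipeptidyl peptidase I, the enzyme that activates serine proteases of leukocyte granules, rose with IL-4 in all 3 constructs. It was the only one of the 10 genes to pass in each comparison without the block, where 3.05% of tested genes passed in NIC1 cells, 3.28% in DNMAML cells and 2.93% in IRES cells. CTSC had 449, 503 and 433 CPM in NIC1 cells with IL-4, against 288, 282 and 253 CPM in unstimulated NIC1 cells. It had 331, 412 and 357 CPM in DNMAML cells with IL-4, against 193, 257 and 221 CPM in unstimulated DNMAML cells. It had 368, 425 and 356 CPM in IRES cells with IL-4, against 195, 256 and 219 CPM in unstimulated IRES cells. Every IL-4 library was above every unstimulated library, across constructs as well as within them. Over all tested genes, the ranges of the IL-4 and unstimulated libraries did not overlap for 14.9% in NIC1, 14.1% in DNMAML and 13.3% in IRES cells. DESeq2 also called CTSC and no other of the 10 genes, where 4% of genes passed in NIC1, 4.16% in DNMAML and 4% in IRES cells. The log2 change was 0.75 ± 0.12 (SE) in NIC1 cells, with an adjusted p of 0.00148 in edgeR's quasi-likelihood test. DNMAML cells gave 0.71 ± 0.12 (adjusted p = 0.00226) and IRES cells 0.78 ± 0.12 (0.00107). The change had the same direction in 3 of 3 experiments in each construct, and each call was kept in 6 of 6 fits that left out 1 library. In bulk RNA such as this, fewer cells of a type and less RNA per cell cannot be told apart.

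No difference between constructs in the CTSC response passed the test. The difference in log2 response was -0.03 for NIC1 minus IRES (95% interval -0.36 to 0.31), -0.07 for DNMAML minus IRES (-0.40 to 0.27) and 0.04 for NIC1 minus DNMAML (-0.30 to 0.38). For none of the 10 genes did the response pass as different in these 3 comparisons, where 0 of 15037 genes passed in edgeR (0%) and 0 in DESeq2. At an unadjusted p under 0.05, edgeR gave 121, 98 and 214 genes in the same order, and 0 of them were among the 10. With 1 term for each construct and experiment, 13 genes (0.0865%) passed for NIC1 minus DNMAML, again with 0 of the 10.

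CTSD, the main aspartic protease of the lysosome, was slightly lower with IL-4 within every experiment of every construct. CTSD had 198, 148 and 179 CPM in NIC1 cells with IL-4, against 221, 159 and 196 CPM in unstimulated NIC1 cells. It had 248, 166 and 228 CPM in DNMAML cells with IL-4, against 274, 184 and 262 CPM in unstimulated DNMAML cells. It had 233, 159 and 218 CPM in IRES cells with IL-4, against 259.8, 181 and 229 CPM in unstimulated IRES cells. The groups overlapped in each construct, and the order showed only when libraries of the same experiment were set side by side. The log2 change was -0.14 in NIC1, -0.17 in DNMAML and -0.14 in IRES cells, with edgeR adjusted p values of 0.999, 0.968 and 1. Blocked by experiment number, CTSD passed in DNMAML cells alone (edgeR adjusted p = 0.0413), where 9.95% of genes passed, against 8.8% in NIC1 and 9.04% in IRES cells. That call was kept in 1 of 6 fits that left out a library, the one without unstimulated DNMAML library 2. With 1 term for each construct and experiment, CTSD fell in all 3 constructs (edgeR adjusted p of 0.0238 in NIC1, 0.00369 in DNMAML and 0.0162 in IRES cells), and in DNMAML cells ACP5 (0.0221) and CTSA (0.0212) fell as well. In that fit 14.3%, 17% and 15% of genes passed in NIC1, DNMAML and IRES cells.

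The other genes did not pass for IL-4 in these fits. CTSB, which cuts proteins both internally and at their ends, had log2 changes of -0.09 in NIC1, -0.12 in DNMAML and -0.09 in IRES cells. For CTSH, an aminopeptidase, CTSL and CTSS, both endopeptidases, CTSK, a collagen-degrading endopeptidase, and CTSZ, a carboxypeptidase, the log2 changes lay between -0.15 and 0.06 over the 3 constructs. The median log2 change over the 10 genes was -0.08 in NIC1, -0.05 in DNMAML and -0.04 in IRES cells, against -0.01 in NIC1, -0.01 in DNMAML and -0.005 in IRES cells over all tested genes.

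**Figure D3:**
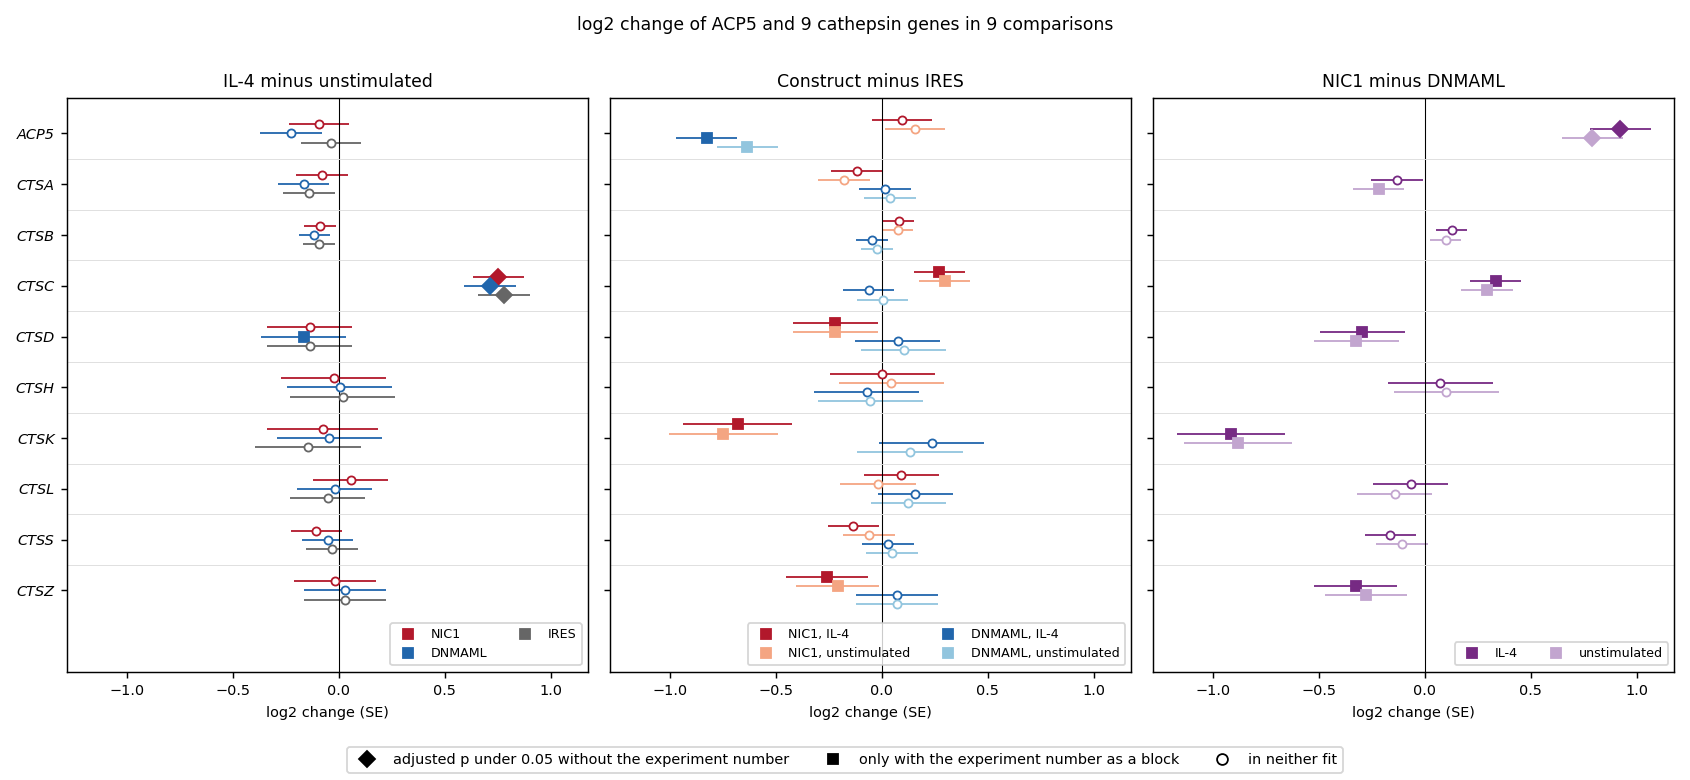
log2 change of each gene (horizontal axis, with SE) for IL-4 minus unstimulated in each construct (left), each construct minus IRES (middle) and NIC1 minus DNMAML (right). Diamonds passed at an adjusted p under 0.05 without the experiment number, filled squares only with it as a block, and open circles in neither. The IL-4 change of CTSC, between 0.71 and 0.78, and the NIC1 minus DNMAML differences of ACP5, 0.79 and 0.92, are the diamonds.

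ACP5 (chr19:11574660-11579008, minus strand, GRCh38) was about as high in NIC1 as in IRES cells and lower in DNMAML cells. ACP5 had 66.4, 59.0 and 53.8 CPM in NIC1 cells with IL-4, 31.7, 36.4 and 26.7 CPM in DNMAML cells with IL-4 and 57.5, 59.9 and 50.3 CPM in IRES cells with IL-4. It had 79.1, 61.2 and 51.0 CPM in unstimulated NIC1 cells, 35.5, 39.4 and 35.8 CPM in unstimulated DNMAML cells and 57.8, 61.7 and 52.4 CPM in unstimulated IRES cells. All 6 DNMAML libraries lay below all 12 NIC1 and IRES libraries, while the NIC1 and IRES libraries overlapped. Over all tested genes, ranges did not overlap for 15.7% with IL-4 and 16.3% unstimulated between NIC1 and DNMAML cells, and for 5.48% and 6.08% between DNMAML and IRES cells. Behind these levels stood between 416 and 1040 counts of ACP5 per library.

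Between NIC1 and DNMAML cells, ACP5 was the only one of the 10 genes to pass without the block, in both conditions, where 1.44% of tested genes passed with IL-4 and 1.65% unstimulated. ACP5 was higher in NIC1 by 0.92 ± 0.14 (log2, SE) with IL-4, with an edgeR adjusted p of 0.00342. Unstimulated, it was higher by 0.79 ± 0.14, with an adjusted p of 0.0111. The direction held in 3 of 3 experiments in both conditions, with log2 differences of 1.07, 0.70 and 1.01 with IL-4 and 1.16, 0.63 and 0.51 unstimulated, in the order of the experiments. The call with IL-4 was kept in 6 of 6 fits that left out a library. The unstimulated call was kept in 4 of 6, and without DNMAML library 1 or 3 the adjusted p was 0.0692 and 0.0555. With only these 2 groups in the fit, the unstimulated adjusted p was 0.0867.

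Against IRES cells, which serve as control for both constructs, the DNMAML difference of ACP5 depended on the fit. ACP5 was -0.82 ± 0.14 (log2, SE) in DNMAML minus IRES with IL-4 and -0.63 ± 0.14 unstimulated, lower in 3 of 3 experiments each. Without the block, edgeR gave adjusted p values of 0.515 and 1, and 0 of 15037 genes passed in either condition (0%). Unadjusted, 357 genes with IL-4 and 371 unstimulated were under 0.05. In the blocked fit, ACP5 fell in DNMAML cells in both conditions, with adjusted p values of 0.000637 and 0.00962, where 0.0931% and 0.146% of genes passed. The blocked call with IL-4 was kept in 6 of 6 fits that left out a library, and the unstimulated one in 3 of 6, lost without IRES library 2 or 3 or DNMAML library 1, with adjusted p values up to 0.145. DESeq2 called ACP5 with IL-4 (adjusted p = 0.00124), as its only gene of that comparison (0.00665%), and not unstimulated (0.125, with 0.0133% of genes called). Without the filter on low counts, 34275 genes were tested in place of 15037, and edgeR called ACP5 in both conditions. Of those 34275 genes, 0.00292% passed with IL-4 and 0.00584% unstimulated. In NIC1 minus IRES, ACP5 was 0.10 ± 0.14 with IL-4 and 0.15 ± 0.14 unstimulated and passed in no fit, and unstimulated, experiment 1 gave 0.45 while experiments 2 and 3 gave -0.01 and -0.04.

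CTSK (chr1:150796208-150808323, minus strand, GRCh38), the least abundant of the 10 genes and the collagenase of osteoclasts, was lower in NIC1 cells than in DNMAML or IRES cells. CTSK had 8.43, 4.99 and 7.07 CPM in NIC1 cells with IL-4, 13.6, 10.2 and 14.8 CPM in DNMAML cells with IL-4 and 14.2, 8.34 and 10.3 CPM in IRES cells with IL-4. It had 8.14, 5.97 and 7.52 CPM in unstimulated NIC1 cells, 15.1, 10.7 and 14.1 CPM in unstimulated DNMAML cells and 16.1, 8.95 and 11.3 CPM in unstimulated IRES cells. All 6 NIC1 libraries lay below all 6 DNMAML libraries, and in each experiment the NIC1 library was below both others, although NIC1 library 1 with IL-4 stood above IRES library 2. Over all tested genes, ranges did not overlap between NIC1 and DNMAML cells for 15.7% with IL-4 and 16.3% unstimulated. Between NIC1 and IRES cells the shares were 10.2% with IL-4 and 10% unstimulated. These levels rest on between 68 and 231 counts per library.

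Without the block, edgeR did not call CTSK between constructs, with adjusted p values of 0.106 with IL-4 and 0.109 unstimulated for NIC1 minus DNMAML. For NIC1 minus IRES the edgeR adjusted p values were 0.598 with IL-4 and 0.447 unstimulated. With the block, CTSK was lower in NIC1 than in DNMAML cells by a log2 difference of -0.92 ± 0.12 (SE) with IL-4, with an adjusted p of 2.22e-05. Unstimulated, that difference was -0.88 ± 0.12, with an adjusted p of 4.83e-05. NIC1 minus IRES gave -0.68 ± 0.13 with IL-4 and -0.74 ± 0.13 unstimulated, with blocked adjusted p values of 0.00206 and 0.00098. All 4 of these blocked calls were kept in 6 of 6 fits that left out a library. DESeq2 without the block called CTSK between NIC1 and DNMAML cells (adjusted p of 0.0291 with IL-4 and 0.0373 unstimulated), where 2.73% and 3.17% of genes passed, and did not call it between NIC1 and IRES cells, where 0.718% and 0.605% passed. Without IRES library 1 of the unstimulated cells, the highest of all at 16.1 CPM, the NIC1 minus IRES difference without the block was -0.49, against -0.75 with it. Between DNMAML and IRES cells, CTSK differed by 0.23 ± 0.25 with IL-4 and 0.13 ± 0.25 unstimulated and passed in no fit.

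**Figure D4:**
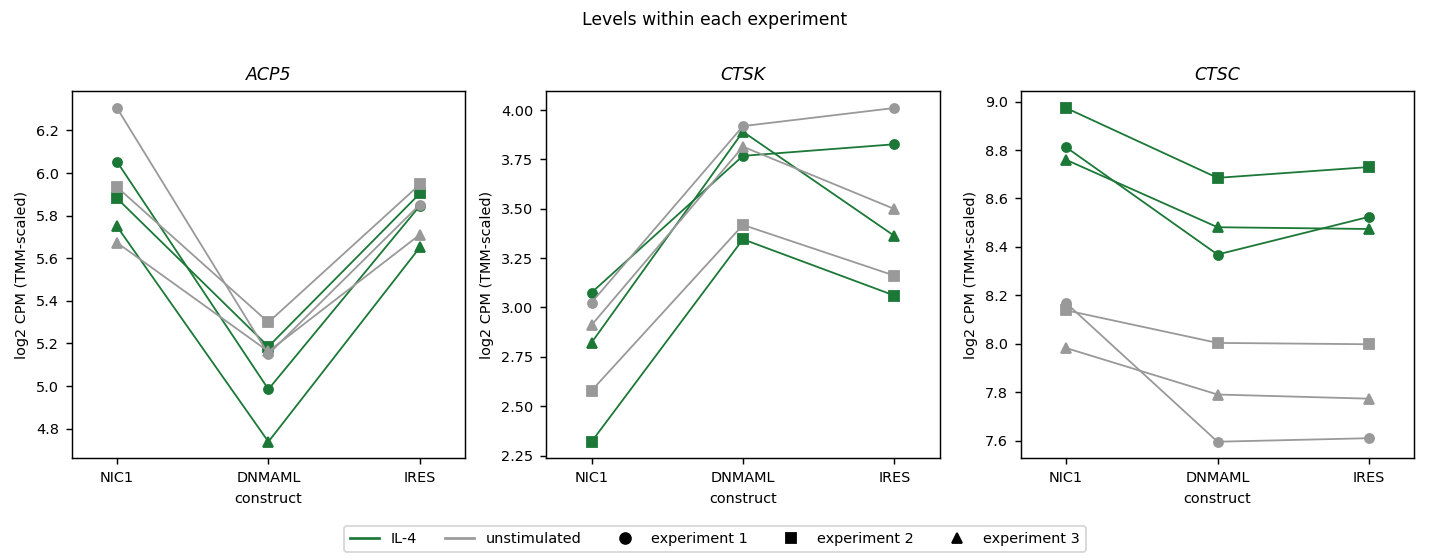
log2 CPM (vertical axis, TMM-scaled, not starting at 0) of ACP5, CTSK and CTSC in NIC1, DNMAML and IRES cells, with 1 line for each experiment with IL-4 (green) and unstimulated (grey). In ACP5, every line dips at DNMAML. In CTSK, every line is lowest at NIC1, and in CTSC, every line is highest at NIC1 and the green lines lie above the grey ones.

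CTSC, CTSD, CTSZ and CTSA also differed between constructs, by smaller amounts and only with the block. In all, 4 of the 10 genes passed for NIC1 minus IRES in each condition with the block, CTSC, CTSD, CTSK and CTSZ, where 5.44% of genes passed with IL-4 and 5.37% unstimulated. Without the block, 0 of the 10 passed, where 0.2% of genes passed with IL-4 and 0.233% unstimulated in edgeR, and CTSC and CTSK were under an unadjusted p of 0.05. For NIC1 minus DNMAML, 5 genes passed with IL-4 and 6 unstimulated with the block, where 12.6% and 13.8% of genes passed.

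CTSC was higher in NIC1 cells on top of its response to IL-4. Its blocked log2 difference of NIC1 minus DNMAML was 0.34 ± 0.07 (SE) with IL-4 and 0.30 ± 0.07 unstimulated, with edgeR adjusted p values of 0.00164 and 0.00463. NIC1 minus IRES gave 0.27 ± 0.07 with IL-4 and 0.31 ± 0.07 unstimulated, with blocked adjusted p values of 0.0179 and 0.00968. Each was higher in 3 of 3 experiments. Of the fits that left out a library, the NIC1 minus IRES call was kept in 2 of 6 with IL-4 and 4 of 6 unstimulated, and the NIC1 minus DNMAML call in 6 of 6 and 5 of 6. The losses came without NIC1 library 1 or IRES library 1, 2 or 3 with IL-4, and without NIC1, DNMAML or IRES library 1 unstimulated. Between DNMAML and IRES cells CTSC did not pass, with -0.06 ± 0.12 with IL-4 and 0.003 ± 0.12 unstimulated.

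CTSZ (chr20:58995185-59007247, minus strand, GRCh38) and CTSD (chr11:1752752-1764573, minus strand, GRCh38) fell in NIC1 cells. CTSZ had 258, 182 and 237 CPM in NIC1 cells with IL-4, 320.3, 234 and 295 CPM in DNMAML cells with IL-4 and 318, 208 and 284 CPM in IRES cells with IL-4. It had 255, 184 and 247 CPM in unstimulated NIC1 cells, 322, 230.2 and 279.7 CPM in unstimulated DNMAML cells and 309, 218 and 266 CPM in unstimulated IRES cells. The groups overlapped, and within each experiment the NIC1 library was the lowest of the 3. The blocked log2 difference of NIC1 minus DNMAML was -0.33 ± 0.05 with IL-4 (adjusted p = 9.67e-05) and -0.28 ± 0.05 unstimulated (0.000581), both kept in 6 of 6 fits that left out a library. NIC1 minus IRES gave -0.25 ± 0.05 with IL-4 (0.00358, kept in 6 of 6) and -0.21 ± 0.05 unstimulated (0.0149, kept in 3 of 6). CTSD, whose values stand with its IL-4 response, was lowest in the NIC1 library of each experiment too. Its blocked difference of NIC1 minus DNMAML was -0.28 ± 0.05 with IL-4 (0.000564) and -0.31 ± 0.05 unstimulated (0.000205), both kept in 6 of 6. NIC1 minus IRES of CTSD gave -0.21 ± 0.05 with IL-4 (0.0157, kept in 2 of 6) and -0.22 ± 0.05 unstimulated (0.0137, kept in 3 of 6). The unstimulated CTSZ call was lost without NIC1 library 1 or IRES library 1 or 2. The CTSD calls were lost without NIC1 or IRES library 1 or 3 with IL-4, and without NIC1 library 3 or IRES library 1 or 2 unstimulated.

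CTSA (chr20:45890144-45898820, plus strand, GRCh38), a serine carboxypeptidase that also protects lysosomal beta-galactosidase and neuraminidase, averaged 98.9 ± 8.04 CPM in unstimulated NIC1 cells, 115 ± 14.5 CPM in unstimulated DNMAML cells and 112 ± 7.95 CPM in unstimulated IRES cells (SD, n = 3 each). It averaged 93.5 ± 12.9 CPM in NIC1 cells with IL-4, 103 ± 10.5 CPM in DNMAML cells with IL-4 and 101 ± 12.2 CPM in IRES cells with IL-4. The blocked difference of NIC1 minus DNMAML, unstimulated, was -0.21 ± 0.06 (edgeR adjusted p = 0.012), kept in 4 of 6 fits that left out a library (lost without DNMAML library 1 or 3), and CTSA passed in no other comparison of constructs. CTSB, CTSH, CTSL and CTSS passed in no comparison and no fit.

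For these 4 genes the means are given by group. CTSB averaged 369 ± 15.6 CPM in NIC1 cells with IL-4, 338 ± 9.83 CPM in DNMAML cells with IL-4 and 349 ± 23.2 CPM in IRES cells with IL-4, and 392 ± 35.3 CPM in unstimulated NIC1 cells, 366 ± 19.0 CPM in unstimulated DNMAML cells and 372 ± 2.69 CPM in unstimulated IRES cells. CTSS, which trims the invariant chain of MHC class II molecules, averaged 215 ± 18.6 CPM in NIC1 cells with IL-4, 241 ± 25.8 CPM in DNMAML cells with IL-4 and 236 ± 27.9 CPM in IRES cells with IL-4, and 231 ± 26.0 CPM in unstimulated NIC1 cells, 249 ± 27.5 CPM in unstimulated DNMAML cells and 241 ± 27.2 CPM in unstimulated IRES cells. Neither gene had a group that stood apart from all the others. CTSL lay between 28.0 and 41.9 CPM over the 18 libraries and CTSH between 37.2 and 66.2 CPM, with the 6 highest CTSH libraries all from experiment 1. The smallest blocked adjusted p over all comparisons was 0.181 for CTSB, 0.0674 for CTSS, 0.489 for CTSL and 0.432 for CTSH in edgeR.

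Over 18 libraries, with the mean of each experiment subtracted, CTSK ran most closely with CTSZ (Pearson r = 0.94) and CTSD (0.86) and opposite to ACP5 (-0.69). ACP5 ran opposite to CTSZ as well (-0.75) and together with CTSB (0.63), and CTSC ran opposite to CTSA (-0.80) and CTSD (-0.75). These values describe 18 libraries that share 6 groups, and libraries share depth and composition, so no p is attached.

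**Figure D5:**
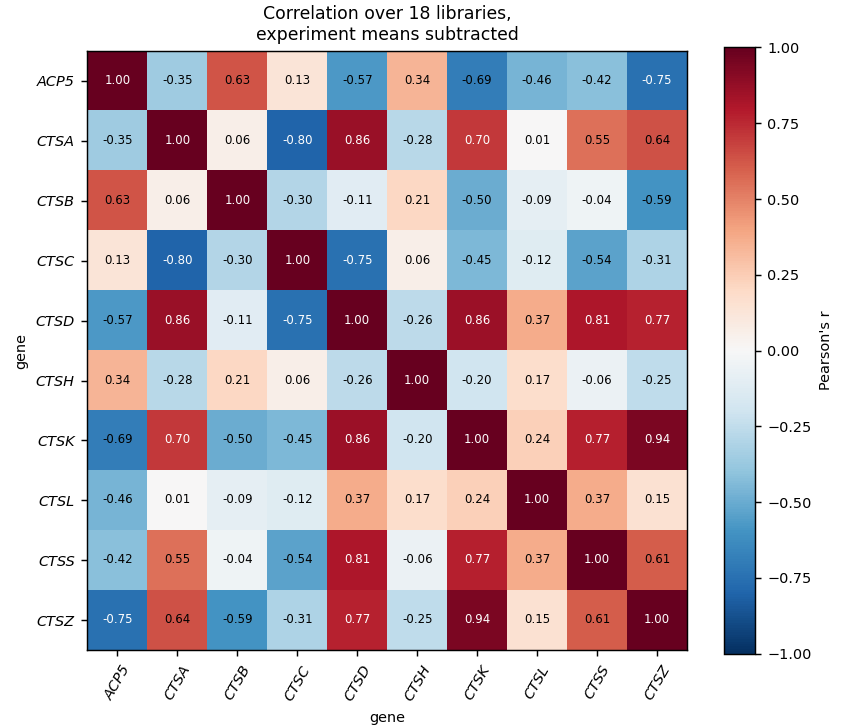
Pearson correlation (colour and number) between each pair of the 10 genes over 18 libraries, from log2 CPM with the mean of each experiment subtracted. CTSK, CTSZ, CTSD, CTSS and CTSA form the positive block, with r between 0.55 and 0.94, while ACP5 is negative against each of them.

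Among 12570 tested genes with a mean of at least 2 CPM, the 5 whose pattern over the 18 libraries was most like that of ACP5, after the experiment means were subtracted, were OTULIN (r = 0.92), DNM1L (0.92), HES1 (0.91), CD36 (0.91) and ITGB5 (0.90). HES1, a classic Notch target, averaged 26.9 CPM in NIC1, 7.61 CPM in DNMAML and 15.7 CPM in IRES cells with IL-4, and 27.4, 9.90 and 16.6 CPM in the same order unstimulated. CD36, a scavenger receptor, averaged 34.8 CPM in NIC1, 11 CPM in DNMAML and 21.3 CPM in IRES cells with IL-4. Both stood higher in NIC1 than in IRES cells, whereas ACP5 averaged 59.7 CPM in NIC1 and 55.9 CPM in IRES cells with IL-4. Among the genes most like CTSK were MEGF6 (0.96), AOC1 (0.96), KCNAB2 (0.95) and TM6SF1 (0.95). AOC1, a diamine oxidase, averaged 35.6 CPM in NIC1, 82.7 CPM in DNMAML and 64.2 CPM in IRES cells with IL-4.

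Other genes of the pathway were counted over 8 lists, which were drawn up with results of these data known. To set beside those counts, 3.05%, 3.28% and 2.93% of all tested genes passed for IL-4 in NIC1, DNMAML and IRES cells without the block. With it, 8.8%, 9.95% and 9.04% passed. For NIC1 minus DNMAML, 1.44% with IL-4 and 1.65% unstimulated passed without the block, and 12.6% and 13.8% with it. Of 4 other tested cathepsins (CTSF, CTSO, CTSV and CTSW), 0 passed in any comparison without the block. With it, 2 were higher and 2 lower in NIC1 than in DNMAML cells with IL-4, and 1 higher and 1 lower unstimulated. CTSW, a cathepsin of cytotoxic lymphocytes, was higher in NIC1 than in IRES and DNMAML cells in both conditions with the block, at 305 ± 73.1 CPM in NIC1 cells with IL-4, 198 ± 38.1 CPM in DNMAML cells with IL-4 and 211 ± 53.8 CPM in IRES cells with IL-4 (SD, n = 3 each). Its blocked log2 difference of NIC1 minus DNMAML was 0.61 with IL-4 (edgeR adjusted p = 2.54e-06) and 0.56 unstimulated. CTSF was lower in NIC1 than in DNMAML cells with the block, by -0.52 with IL-4 and -0.39 unstimulated.

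Among 16 genes of cathepsin processing and lysosomal sorting, all tested, LGMN and SORT1 passed without the block. LGMN, the asparagine endopeptidase that processes several cathepsins to their mature form, had 7.36 ± 0.658 CPM in NIC1 cells with IL-4, 3.27 ± 0.737 CPM in DNMAML cells with IL-4 and 4.35 ± 1.04 CPM in IRES cells with IL-4. It was higher in NIC1 than in DNMAML cells by 1.17 ± 0.22 (log2, SE) with IL-4 (edgeR adjusted p = 0.0113) and by 1.13 ± 0.22 unstimulated (0.014). SORT1, a receptor that carries precursors to the lysosome, was the 1 gene of the list that passed for IL-4 without the block, higher in all 3 constructs. With the block, IL-4 gave 1 higher and 0 lower in NIC1, 1 higher and 3 lower in DNMAML and 1 higher and 1 lower in IRES cells. For NIC1 minus DNMAML with the block, 2 were higher and 1 lower with IL-4, where 12.6% of all tested genes passed. Unstimulated, 1 was higher and 5 were lower, SORT1 among the lower, where 13.8% passed. SORT1 averaged 328 ± 7.01 CPM in NIC1 cells with IL-4, against 160.3 ± 9.58 CPM in unstimulated NIC1 cells. It averaged 336 ± 34.4 CPM in DNMAML cells with IL-4, against 192 ± 6.39 CPM in unstimulated DNMAML cells, and 326 ± 16.3 CPM in IRES cells with IL-4, against 177 ± 18.5 CPM in unstimulated IRES cells.

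Of 10 tested genes in a list of inhibitors of cathepsins and other proteases, 2 passed for IL-4 in each construct, both higher. They were SERPINB3 and SERPINB4, near-identical paralogs that inhibit cathepsins and related proteases. SERPINB4 averaged 6.13 ± 1.01 CPM in NIC1 cells with IL-4, 3.97 ± 0.545 CPM in DNMAML cells with IL-4 and 4.94 ± 1.56 CPM in IRES cells with IL-4, and was at most 0.052 CPM in the mean of unstimulated cells of any construct. SERPINB3 averaged 1.5 CPM in NIC1, 1.36 CPM in DNMAML and 1.58 CPM in IRES cells with IL-4, and had 0 counts in all 9 unstimulated libraries. Because their reads can be shared, the split between the pair is uncertain. The general inhibitors CST3 (cystatin C, 356 to 445 CPM) and CSTB (cystatin B, 87.7 to 157 CPM) passed only with the block. CST3 was lower and CSTB higher in NIC1 than in DNMAML cells, by -0.20 and 0.40 on the log2 scale with IL-4. Larger blocked differences in the same comparison were those of SERPINB9 (2.28, edgeR adjusted p = 1.75e-08), CST7 (1.25, 0.000727) and CSTA (-0.53, 0.0139). There, 3 inhibitors were higher and 2 lower, where 12.6% of all tested genes passed. In NIC1 minus IRES with IL-4, 3 were higher and 1 lower with the block, where 5.44% passed.

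Of 31 genes of the lysosomal membrane and V-ATPase, 2 passed for IL-4 in each construct, both higher. CTNS, the lysosomal cystine exporter, averaged 88.7 ± 1.89 CPM in NIC1 cells with IL-4, against 25.9 ± 3.02 CPM in unstimulated NIC1 cells, with a log2 change of 1.78 ± 0.11 (edgeR adjusted p = 8.39e-08). NPC1, which exports cholesterol from lysosomes, averaged 147 ± 21.9 CPM in NIC1 cells with IL-4, against 64.2 ± 5.49 CPM in unstimulated NIC1 cells, with a log2 change of 1.19 ± 0.11 (4.3e-06). Of 34 tested lysosomal hydrolases, SGSH passed for IL-4 in IRES cells, and SGSH and GALC in NIC1 cells, all higher by 0.35 to 0.38, and 0 in DNMAML cells, without the block, where 3.05% of all tested genes passed in NIC1, 3.28% in DNMAML and 2.93% in IRES cells. With the block, IL-4 gave 3 higher and 1 lower in NIC1, 3 higher and 0 lower in DNMAML and 3 higher and 1 lower in IRES cells. Between NIC1 and DNMAML cells, 1 rose and 2 fell with IL-4 (GALC, then ARSB and SGSH), and 0 rose and 3 fell unstimulated (ARSB, SGSH and SMPD1), where 1.44% and 1.65% of all tested genes passed. With the block, 1 rose and 8 fell with IL-4, and 1 rose and 9 fell unstimulated, where 12.6% and 13.8% of all tested genes passed. The median log2 difference over the hydrolases was -0.10 in both conditions, against -0.003 with IL-4 and -0.001 unstimulated over all tested genes.

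Of 13 tested MiT/TFE factors and regulators, IL-4 gave 1 higher and 0 lower in NIC1, 1 higher and 1 lower in DNMAML and 0 in IRES cells without the block, and 2 higher and 2 lower in NIC1, 2 higher and 1 lower in DNMAML and 2 higher and 2 lower in IRES cells with it. FNIP2, a partner of folliculin, rose with IL-4 by 0.59 in NIC1 (edgeR adjusted p = 0.0134) and by 0.50 in DNMAML cells (0.0399) without the block, and by 0.47 in IRES cells with it (0.0121). FNIP2 was also higher in NIC1 than in DNMAML cells with IL-4, by 0.54 (0.0451), the 1 gene of the list that passed between constructs without the block. RRAGD, a Rag GTPase of the lysosome surface, rose with IL-4 in all 3 constructs with the block, by 0.28 in NIC1, 0.28 in DNMAML and 0.38 in IRES cells. TFEB averaged 87.0 ± 3.41 CPM in NIC1 cells with IL-4, 92.7 ± 10.1 CPM in DNMAML cells with IL-4 and 91.2 ± 8.19 CPM in IRES cells with IL-4. It averaged 107 ± 4.85 CPM in unstimulated NIC1 cells, 125 ± 19.3 CPM in unstimulated DNMAML cells and 117 ± 12.3 CPM in unstimulated IRES cells. TFEB fell by 0.43 on the log2 scale with IL-4 in DNMAML cells without the block (edgeR adjusted p = 0.0442), and with the block in NIC1 (0.00418) and IRES cells (0.000633) too. TFE3 lay between 121 and 161 CPM and passed only with the block, lower with IL-4 in NIC1 cells by -0.18 (0.0376) and in IRES cells by -0.17 (0.0464). MITF lay between 0.128 and 1.84 CPM. TFEC, a macrophage member of the family, was lower in NIC1 than in DNMAML cells with the block, by -0.33 with IL-4 and -0.59 unstimulated.

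Of 18 tested osteoclast and multinucleation genes, 1 rose and 2 fell with IL-4 in each construct. TNFRSF11A, the receptor RANK, rose to 3.70 ± 1.29 CPM in NIC1 cells with IL-4, against 0.861 ± 0.268 CPM in unstimulated NIC1 cells. CA2, the carbonic anhydrase of acid secretion, fell to 60.7 ± 4.25 CPM in NIC1 cells with IL-4, against 127 ± 7.24 CPM in unstimulated NIC1 cells, and FOS, an AP-1 factor, fell as well. Between NIC1 and DNMAML cells, SPP1 (osteopontin) was higher in both conditions by 0.86 with IL-4 and 0.88 unstimulated, and SRC unstimulated by 1.03. With the block, 6 genes of the list were higher and 2 lower with IL-4, where 12.6% of all tested genes passed. Unstimulated, 6 were higher and 4 lower, where 13.8% passed. Of 7 tested genes of antigen presentation, the step that CTSS and CTSL serve, 0 passed without the block. With it, HLA-DMB, which helps load peptides onto class II molecules, fell with IL-4 by a log2 change of -0.76 in NIC1 (edgeR adjusted p = 0.00562), -0.70 in DNMAML (0.00358) and -0.86 in IRES cells (0.00064). In NIC1 minus DNMAML with the block, the class II chains HLA-DRA (1.60 with IL-4 and 1.34 unstimulated) and HLA-DRB1 (1.43 and 1.27) were higher, and HLA-DMB (-0.63 and -0.56) was lower. Both chains were scarce. HLA-DRA averaged 2.95 CPM in NIC1, 0.962 CPM in DNMAML and 2.13 CPM in IRES cells with IL-4, and HLA-DRB1 1.51, 0.553 and 1.82 CPM. Neither chain passed for NIC1 minus IRES with or without the block. HLA-DRB1 has close paralogs, so its level is uncertain.

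Markers of monocytes and macrophages were present, with PTPRC at 511 to 633 CPM, SPI1 at 289 to 369, ITGAM at 189 to 422 and CSF1R at 150 to 294 CPM, while CD14 lay between 1.59 and 9.26 CPM. CD68 lay between 0.401 and 1.60 CPM, and 81.7% of its exon bases are shared with the same-strand gene AC016876.2. The summed level of the 8 markers ran from 1246 to 1472 CPM in NIC1, 1469 to 1695 in DNMAML and 1388 to 1641 in IRES cells with IL-4, and from 1237 to 1497, 1482 to 1684 and 1393 to 1635 CPM unstimulated. ITGAM was lower in NIC1 than in DNMAML cells by -0.57 with IL-4 and -0.78 unstimulated. With the block, 5 of the 8 markers were lower there and 0 higher with IL-4, where 12.6% of all tested genes passed. Unstimulated, 3 were lower and 0 higher, where 13.8% passed. LYZ (17.1 to 37.7 CPM) was lower by -0.44 with IL-4 and -0.54 unstimulated, and FCGR1A (3.68 to 15.6 CPM) by -0.48 with IL-4. Of 5 T cell markers, CD3D and CD3G rose in NIC1 against DNMAML cells (log2 differences of 3.88 and 5.27 with IL-4), and CD3E and CD2 were at or near 0. With IL-4, CD3D averaged 23.6 CPM in NIC1 and 1.62 CPM in DNMAML cells, and CD3G 3.02 and 0.0655 CPM. TRAC, the fifth, made up most of the summed level and differed by 0.26 with the block (edgeR adjusted p = 0.00696). The summed level was 113 to 137 CPM in NIC1, 75.2 to 93.7 in DNMAML and 77.5 to 95.8 in IRES cells with IL-4. Unstimulated, it was 124 to 158 CPM in NIC1, 84.9 to 95.6 in DNMAML and 87.2 to 104 in IRES cells. Of 5 fibroblast and epithelium markers, COL1A1 lay between 74.2 and 149 CPM and COL1A2 between 7.14 and 28.7 CPM. KRT18 (2.47 to 8.38 CPM) was lower in NIC1 than in DNMAML cells without the block. Its log2 difference was -1.12 with IL-4 (edgeR adjusted p = 0.0113) and -1.11 unstimulated (0.013). The T cell sum was highest in NIC1 cells and overlapped between DNMAML and IRES cells. ACP5 was lowest in DNMAML cells and passed between NIC1 and DNMAML cells without the block. In edgeR, CTSK, CTSC, CTSD and CTSZ differed between NIC1 cells and both other constructs only with the block. CTSA passed with it between unstimulated NIC1 and DNMAML cells. The part of the markers in any of those results was not tested.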

How the data were processed

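The authors deposited whole-number counts of reads per gene for each of 18 libraries, not normalized. FastQC, Trimmomatic, HISAT2, HTSeq and DESeq2 and the build GRCh38.p12 are named per the submitters' processing notes. No version, setting, annotation release or strand option is given in those sources. Reads on no gene, 23.8% to 30.9% of a library, were left out.

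The counts were fitted with edgeR 4.0.16 (limma 3.58.1, R 4.3.3): TMM, low-count filter by group, 1 term for each of 6 groups over all 18 libraries, and the robust quasi-likelihood test with Benjamini-Hochberg adjustment over 15037 genes at 0.05. Intervals are 1.96 SE either side. log2 CPM used a prior count of 2. Gene lengths and positions come from GENCODE 29, promoters from RefSeq. Tables and figures used Python 3.11.15, pandas 2.3.3 and matplotlib 3.10.9. Alternatives were RLE scaling, no filter, DESeq2 1.42.0, the experiment number as a block, that number within construct, only the groups compared, and leaving out libraries.

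Same-numbered libraries deviated together from their group means: r lay between 0.206 and 0.759 in 45 pairs (median 0.466). The median was -0.395 in 90 pairs of different numbers. Deviations sum to 0 within a group, so that negative median follows from the positive one and adds no separate support. The numbers were taken to pair the libraries because of the positive values in same-numbered pairs.

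The genes and lists were chosen with earlier results of these data known. All 10 genes are named, with up to 3 called genes of each list and comparison, direct partners (LGMN, CST3, CSTB and the MiT/TFE factors), and the 5 genes most like ACP5 and CTSK, of which 1 is not reported here.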

Additional observations from a re-analysis of the deposited data

How the results depend on the processing

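With the experiment number as a replicate block, 2 of the 10 genes were called for IL-4 in DNMAML cells, where 9.95% of all tested genes passed. The count stayed at 1 for IL-4 in NIC1 and IRES cells, where 8.8% and 9.04% passed. It was 4 for NIC1 minus IRES in both conditions, where 5.44% passed with IL-4 and 5.37% unstimulated. For DNMAML minus IRES it was 1 in both, where 0.0931% and 0.146% passed in the same order. NIC1 minus DNMAML gave 5 with IL-4 and 6 unstimulated, where 12.6% and 13.8% passed. With the number as a block within construct, the IL-4 counts were 2 in NIC1, 4 in DNMAML and 2 in IRES cells. In that fit 14.3%, 17% and 15% of all tested genes passed in the same order. With no filter on low counts, ACP5 was called for DNMAML minus IRES, 1 of the 10 genes in each condition (edgeR adjusted p = 0.000318 with IL-4 and 0.0455 unstimulated). That fit tested 34275 genes, of which 0.00292% passed with IL-4 and 0.00584% unstimulated. DESeq2 called 1 gene for DNMAML minus IRES with IL-4, where 0.00665% of all tested genes passed. It called 2 for NIC1 minus DNMAML in both conditions, where 2.73% passed with IL-4 and 3.17% unstimulated. With only the groups compared in the fit, 0 passed for NIC1 minus DNMAML unstimulated (ACP5, 0.0867). Leaving out 1 library gave 0 to 1 there, 1 to 1 for NIC1 minus DNMAML with IL-4 and for IL-4 in each construct, and 0 to 0 in the other comparisons. RLE scaling, and leaving out the 2 libraries with the most genes detected, changed no call in 120 values each, and no called value changed sign. The blocked fits with 1 library left out were chosen after seeing the data. With 3 libraries a group, differences as small as those of CTSD and CTSZ passed only with the block, and CTSK rests on few counts.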
